A study of Mus musculus with 13 samples.

Results

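Sonic hedgehog, Bmp4, Nodal and members of the Wnt and FGF families are secreted signals that pattern the embryo, and the repressive chromatin around their genes was followed in mouse embryonic stem cells. The 9 genes are Shh, Wnt1, Wnt10b, Wnt3a, Fgf8, Fgf5, Bmp4, Nodal and Cer1. Each was read in a fixed mm9 window of 50 to 90 kb, and there were 8 windows because Wnt1 and Wnt10b are neighbours and share a window. Cer1 is not itself a signal of this kind but a secreted antagonist of Nodal and BMP. The windows held 35 of the 31723 regions that merging all H3K27me3 lists gave. The cells were J1 embryonic stem cells with an inducible knockout of Setdb1, a methyltransferase that places H3K9me3, grown feeder-free in serum with LIF. Every group carried this inducible allele. Peak lists came from 4 H3K9me3 libraries of untreated cells, 2 H3K27me3 libraries of cells given 2.5 µM tamoxifen to ablate Setdb1, and 2 H3K27me3 libraries of untreated cells. The tamoxifen solvent DMSO is named as the control treatment. How many clones the cells came from is not stated, and loss of Setdb1 cannot be checked from peak lists.

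H3K27me3 is placed by Polycomb repressive complex 2. In embryonic stem cells it is known to cover CpG-rich promoters of developmental regulators, which are held silent but can be switched on later. H3K9me3 in the same cells is known mainly from retroelements. Gene expression was not measured here, so the lists show where a mark was called and not whether a gene was silent.

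Each list gives peak positions only, and the read depth behind it is unknown. Over the genome, the H3K9me3 lists held 18037 to 42725 peaks, the tamoxifen H3K27me3 lists 15116 and 22265, and the untreated H3K27me3 lists 7041 and 17094. In covered length, tamoxifen H3K27me3 replicates 1 and 2 held 22.9 and 32.9 Mb, and untreated replicates 1 and 2 24.5 and 28.5 Mb. Untreated replicate 1 had fewer but wider peaks, with a median of 2511 bp against 727 to 784 bp in the other H3K27me3 lists. The submitters' notes name MACS2 2.0.10 for replicate 1 of every group and MACS2 2.1.0 for the other replicates, so each treatment has 1 H3K27me3 list of each version. H3K9me3 replicate 4 carries the entry none as its antibody, and its title is what places it among the H3K9me3 libraries. The labels do not say whether the replicates are separate cultures. The p-values below therefore rest on a spread between lists that may be only technical. With 2 lists against 2 the smallest exact permutation p is 0.333. No annotation of mm9 was at hand, so a peak is tied to a gene by its window and not by an exon or start site.

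The first question was which of these genes lay under H3K27me3. A domain here is a stretch of merged H3K27me3 peaks, at least 3 kb wide, that all 4 H3K27me3 lists touch. The windows of Shh, Wnt1 and Wnt10b, Wnt3a, Fgf8 and Fgf5 held 8 domains between them. The windows of Bmp4, Nodal and Cer1 held none, so not every window of the group had a domain. Of 60 kb tiles along the genome 8.23% held a domain (7.20% of 50 kb tiles and 11.5% of 90 kb tiles), and 5 of the 8 ligand windows did. The genes were picked with earlier results of these lists known, so this share describes the choice. The Bmp4 window was intermediate, with narrow patches of the mark in all 4 lists. The Nodal and Cer1 windows had no H3K27me3 peak in any list, which was also the case for 71.1% of the 60 kb tiles. For 50 kb tiles, the width of the Nodal window, the share was 74.1%.

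**Figure D1:**
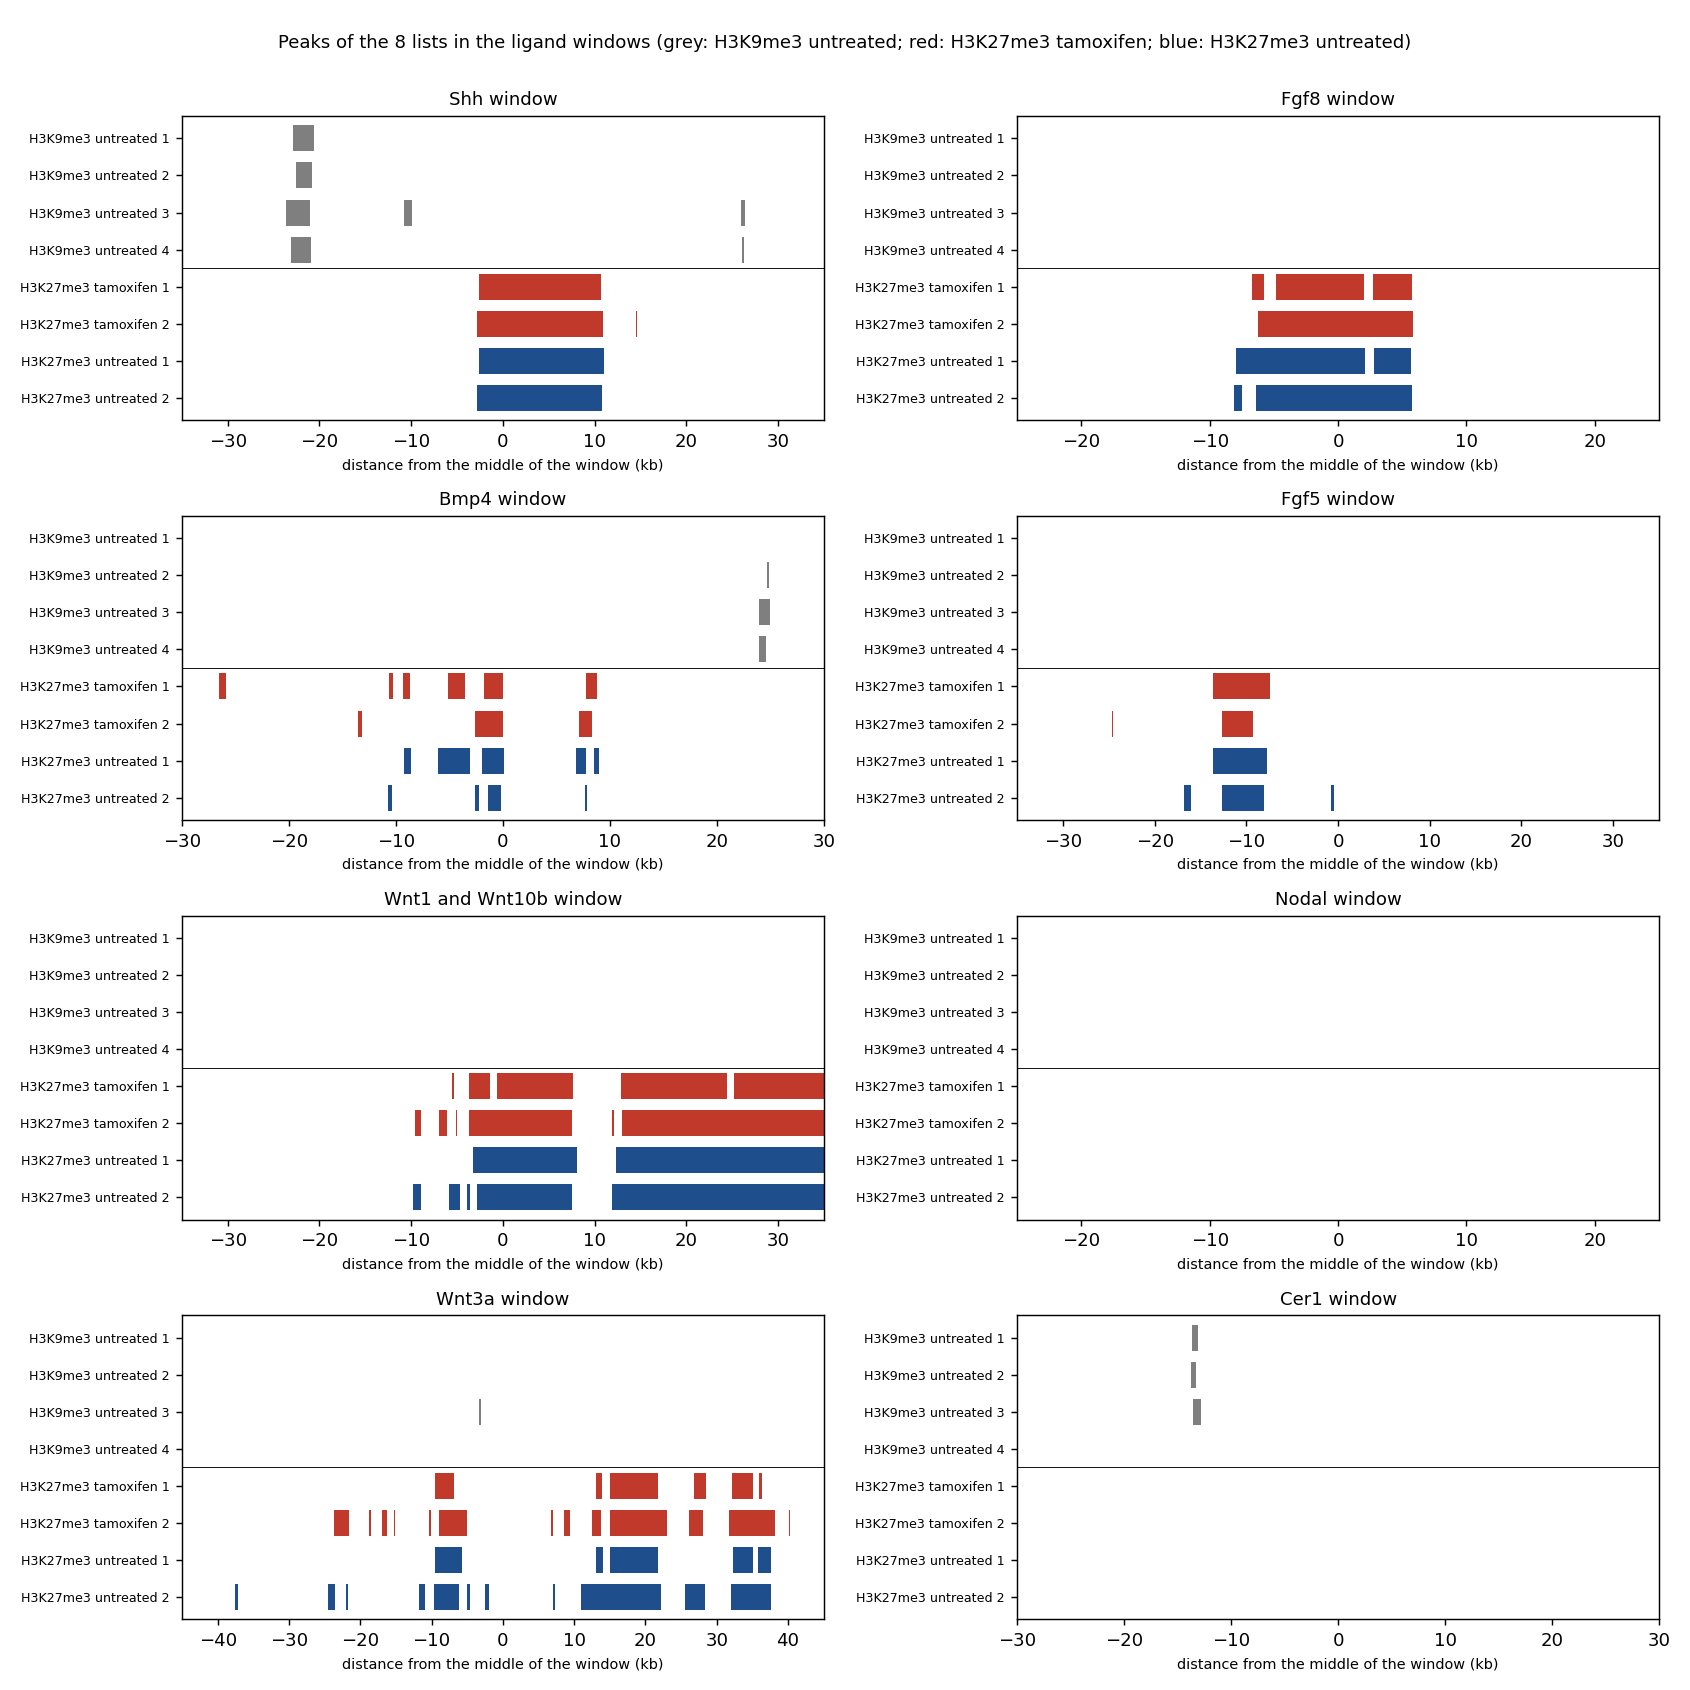
Peaks of the 8 lists in the 8 ligand windows, with distance from the middle of each window in kb on the x axis and 1 list per row (H3K9me3 above, then H3K27me3 with tamoxifen, then H3K27me3 untreated). H3K27me3 forms 1 block at Shh, 2 blocks at Wnt1 and Wnt10b and several at Wnt3a, and is missing from the Nodal and Cer1 windows in all 4 lists.

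The promoters of these genes differed in their CG content along the same line. RefSeq promoters (GRCm38.p6, 250 bases before to 50 after the start) were found for 7 of the 9 genes, and not for Shh and Fgf8. CG pairs were counted, since CG reads the same on both strands. The table's 32851 promoters of 300 bases had a median of 7 CG pairs, with quartiles of 3 and 20, and 94.6% of them held at least 1. In the windows with a domain, the promoter of Wnt3a held 45 CG pairs, Fgf5 29, Wnt1 26 and Wnt10b 18. In the windows without a domain, Bmp4 held 12, Cer1 6 and Nodal 5. The 4 genes from windows with a domain thus had more CG pairs than the 3 from windows without, and the order was not tested because the genes were chosen with the peaks known. Wnt1 and Wnt10b share a window, and the Shh and Fgf8 windows are missing from this comparison. Bmp4 is without a domain at the minimum width of 3 kb but has one at 1 kb. The observed number over that expected from the C and G content was 0.863 for Wnt3a, 0.828 for Fgf5, 0.699 for Wnt1 and 0.559 for Wnt10b, against 0.419 for Bmp4, 0.308 for Cer1 and 0.229 for Nodal, with a median of 0.384 over all promoters.

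These 6 promoters show both ends and the middle of that range. They lie at chr11:59290702-59291001 on the minus strand (Wnt3a), chr5:98253934-98254233 on the plus strand (Fgf5), chr15:98789607-98789906 on the plus strand (Wnt1), chr14:46390620-46390919 on the minus strand (Bmp4), chr10:61417722-61418021 on the plus strand (Nodal) and chr4:82885102-82885401 on the minus strand (Cer1), all in GRCm38.p6 and not in the mm9 of the peaks. Each is written 5′ to 3′ along its gene, with CG pairs in capitals.
Wnt3a: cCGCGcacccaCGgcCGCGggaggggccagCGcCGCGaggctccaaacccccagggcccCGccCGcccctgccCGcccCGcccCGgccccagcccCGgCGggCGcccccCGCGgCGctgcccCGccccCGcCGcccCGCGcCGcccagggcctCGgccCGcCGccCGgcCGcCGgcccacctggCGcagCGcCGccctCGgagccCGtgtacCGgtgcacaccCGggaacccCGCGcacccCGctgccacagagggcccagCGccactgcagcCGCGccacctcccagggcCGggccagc
Fgf5: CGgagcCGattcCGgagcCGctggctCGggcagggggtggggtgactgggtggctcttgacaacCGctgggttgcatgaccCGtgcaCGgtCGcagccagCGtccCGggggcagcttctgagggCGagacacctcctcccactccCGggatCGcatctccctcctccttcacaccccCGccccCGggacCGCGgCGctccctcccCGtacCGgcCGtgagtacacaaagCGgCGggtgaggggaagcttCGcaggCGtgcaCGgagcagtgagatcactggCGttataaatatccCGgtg
Wnt1: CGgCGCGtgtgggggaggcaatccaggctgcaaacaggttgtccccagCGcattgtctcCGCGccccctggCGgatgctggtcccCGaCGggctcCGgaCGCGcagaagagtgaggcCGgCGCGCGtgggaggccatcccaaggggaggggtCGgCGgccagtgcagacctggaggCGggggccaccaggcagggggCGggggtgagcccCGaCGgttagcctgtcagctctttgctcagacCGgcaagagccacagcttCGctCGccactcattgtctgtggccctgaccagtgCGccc
Bmp4: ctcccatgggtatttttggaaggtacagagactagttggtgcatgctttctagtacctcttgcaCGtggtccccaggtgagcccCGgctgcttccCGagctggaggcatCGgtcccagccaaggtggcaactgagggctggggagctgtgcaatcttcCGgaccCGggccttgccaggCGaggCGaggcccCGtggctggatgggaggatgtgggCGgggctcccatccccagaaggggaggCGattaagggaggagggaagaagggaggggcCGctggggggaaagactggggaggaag
Nodal: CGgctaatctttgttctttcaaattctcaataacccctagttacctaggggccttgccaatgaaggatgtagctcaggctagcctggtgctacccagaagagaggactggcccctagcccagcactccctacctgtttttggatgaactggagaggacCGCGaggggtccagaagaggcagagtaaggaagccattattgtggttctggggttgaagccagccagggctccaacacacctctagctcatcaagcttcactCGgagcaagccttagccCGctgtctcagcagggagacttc
Cer1: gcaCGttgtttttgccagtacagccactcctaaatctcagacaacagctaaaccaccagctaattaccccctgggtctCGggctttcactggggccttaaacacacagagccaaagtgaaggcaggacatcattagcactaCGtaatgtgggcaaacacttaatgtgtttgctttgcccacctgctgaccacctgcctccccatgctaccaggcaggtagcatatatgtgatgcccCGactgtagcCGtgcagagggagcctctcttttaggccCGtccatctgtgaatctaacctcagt
In Wnt3a and Wnt1 the capitals run through most of the stretch, while in Nodal and Cer1 they are few.

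**Figure D2:**
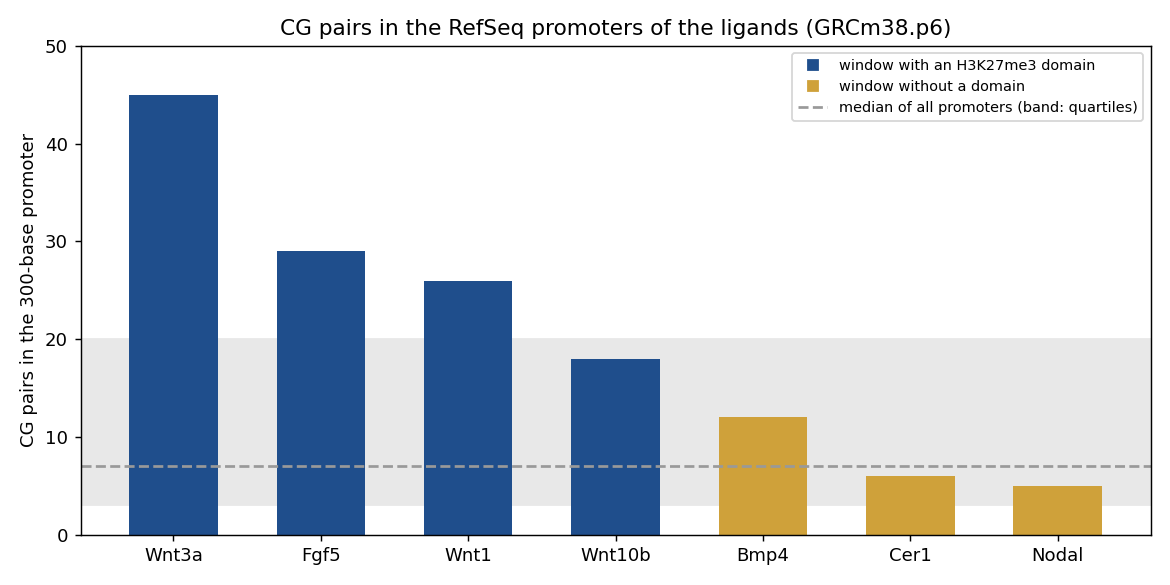
Number of CG pairs in the 300-base RefSeq promoter of each of the 7 genes found (bars), coloured by whether the gene's window holds an H3K27me3 domain, with the median of all promoters (dashed) and their quartiles (band). Wnt3a, Fgf5 and Wnt1 lie above the upper quartile of 20, and Cer1 and Nodal lie below the median of 7.

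The Wnt genes had the longest coverage. Wnt1 is a signal of the midbrain and hindbrain border, Wnt10b acts in skin, bone and fat, and Wnt3a is needed for posterior mesoderm. In the Wnt1 and Wnt10b window (chromosome 15, 98570000 to 98640000, 70 kb) peaks covered 32104 and 35086 bp in tamoxifen replicates 1 and 2, and 33924 and 35671 bp in untreated replicates 1 and 2. The lists overlapped between treatments, and the mean difference of -1202.5 bp was smaller than the spread (two-sided exact permutation p = 0.667). Averaged over the 4 lists, 48.9% of the window was covered, more than in 99.95% of 36830 tiles of its width.

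This window held 2 domains with a short gap between them. The first ran from 98601130 to 98613077 (11948 bp) and the second from 98616890 to 98640593 (23704 bp), reaching just past the window's edge. RefSeq places Wnt10b before Wnt1 on the chromosome and Ddn after Wnt1. The second domain had width rank 67 of the 4841 regions of the genome held by all 4 H3K27me3 lists. Tamoxifen lists covered 92.7% and 96.2% of it in replicates 1 and 2, and untreated lists 97.7% and 99.3%. Both tamoxifen lists lay below both untreated ones, with a difference of -4.12 percentage points (exact permutation p = 0.333, the smallest possible). With borders from the tamoxifen lists alone it was -1.55 points, at the same p. Tamoxifen replicate 1 divided this domain into peaks of 11593 and 10378 bp. Tamoxifen replicate 2 had a peak of 22595 bp and a separate one of 197 bp at the left edge, and each untreated list gave 1 peak. The first domain was covered over 88.5% and 93.9% in tamoxifen replicates 1 and 2, and over 94.5% and 88.5% in untreated replicates 1 and 2. Its lists overlapped, and tamoxifen minus untreated was -6.01 points with MACS2 2.0.10 and 5.46 points with MACS2 2.1.0.

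Wnt3a lay in a looser pattern of patches (chromosome 11, 59040000 to 59130000, 90 kb). Coverage was 15672 and 26130 bp in tamoxifen replicates 1 and 2, and 16072 and 26846 bp in untreated replicates 1 and 2. The lists fell by MACS2 version and not by treatment: the mean was 26488 bp in the MACS2 2.1.0 lists and 15872 bp in the MACS2 2.0.10 lists. Version goes with replicate number here, so the version cannot be told apart from the libraries and their unknown depth. Within a version the tamoxifen list was slightly lower, at 0.975 times its untreated partner with MACS2 2.0.10 and 0.973 times with MACS2 2.1.0 (difference of means -558 bp, exact permutation p = 0.667).

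Of its 3 domains the middle one, from 59095956 to 59107958, was widest at 12003 bp. Tamoxifen replicates 1 and 2 covered 64.8% and 76.9% of it, and untreated replicates 1 and 2 63.4% and 94.0%. The first domain (59075337 to 59080018, 4682 bp) was covered over 58.5% and 84.3% in tamoxifen lists and over 81.7% and 74.3% in untreated lists. The third (59116777 to 59123193, 6417 bp) was covered over 53.5% and 100% in tamoxifen lists and over 72.2% and 88.95% in untreated lists. In all 3 the treatments overlapped. Wnt9a follows Wnt3a on the chromosome in RefSeq, and which gene each domain lies over was not determined.

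Shh, the hedgehog signal of limb and ventral neural tube, had the most regular domain. In its window (chromosome 5, 28750000 to 28820000, 70 kb) every H3K27me3 list gave 1 wide peak, at 13288 and 13829 bp in tamoxifen replicates 1 and 2, and at 13645 and 13638 bp in untreated replicates 1 and 2. The lists overlapped, and the covered length of the window differed by 8.5 bp between the means (13650 ± 512 bp with tamoxifen and 13641.5 ± 4.95 bp untreated, SD, n = 2 each, exact permutation p = 1.0). The merged domain ran from 28782132 to 28796066 (13935 bp). Its first base moved by 290 bp between the lists and its last by 394 bp, where the medians over 3711 regions of 3 kb or wider held by all 4 H3K27me3 lists were 1142 and 1146 bp. All 4 lists shared 13251 bp, or 95.1% of the domain. This was a larger share than in 99.6% of the 497 such regions of 10 kb or wider, whose median was 60.9%. Peaks of 2 lists shared 0.948 to 0.974 of their joint bases in this window.

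The FGF genes differed from each other in how firmly the lists placed the mark. Fgf8 acts in gastrulation and limb outgrowth, and Fgf5 is a marker of the postimplantation epiblast that later limits hair growth. In the Fgf8 window (chromosome 19, 45790000 to 45840000, 50 kb) peaks covered 10875 and 12078 bp in tamoxifen replicates 1 and 2, and 12938 and 12801 bp in untreated replicates 1 and 2. Both tamoxifen lists lay below both untreated ones, and the means were 11476.5 ± 851 bp and 12869.5 ± 96.9 bp (SD, n = 2 each), a difference of -1393 bp (exact permutation p = 0.333, the smallest possible). Tamoxifen was lower within both MACS2 versions, by ratios of 0.841 and 0.944.

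The Fgf8 domain ran from 45806894 to 45820843 (13950 bp), and the lists differed at its left border and in gaps inside it. The first base called was 45808316 and 45808766 in tamoxifen replicates 1 and 2, and 45807041 and 45806894 in untreated replicates 1 and 2. Both tamoxifen lists began after both untreated lists, and the right border moved by 141 bp over all 4. Untreated replicate 2 reached that far left through a separate peak of 606 bp, and its main peak began at 45808594, between the first bases of the tamoxifen lists. Tamoxifen replicate 1 was divided into 3 peaks, tamoxifen replicate 2 was 1 peak, and each untreated list had 2. Tamoxifen lists covered 78.0% and 86.6% of the domain, and untreated lists 92.75% and 91.8%, so the means differed by -9.99 points (82.3% ± 6.10 and 92.3% ± 0.694, SD, n = 2 each, exact permutation p = 0.333). The domain's borders come from the same lists that are compared. With borders from the tamoxifen lists alone the difference was -3.61 points and the treatments overlapped (exact permutation p = 0.667).

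Fgf5 had a smaller domain (chromosome 5, 98681350 to 98687521, 6172 bp) in a window from 98660000 to 98730000. Its window was covered over 6172 and 3586 bp in tamoxifen replicates 1 and 2, and over 5901 and 5762 bp in untreated replicates 1 and 2. Tamoxifen replicate 1 had the longest coverage and tamoxifen replicate 2 the shortest, so the treatments overlapped (difference -952.5 bp, exact permutation p = 1.0). The peaks of tamoxifen replicate 1 and untreated replicate 1 shared 0.956 of their joint bases, and the tamoxifen lists shared 0.529.

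**Figure D3:**
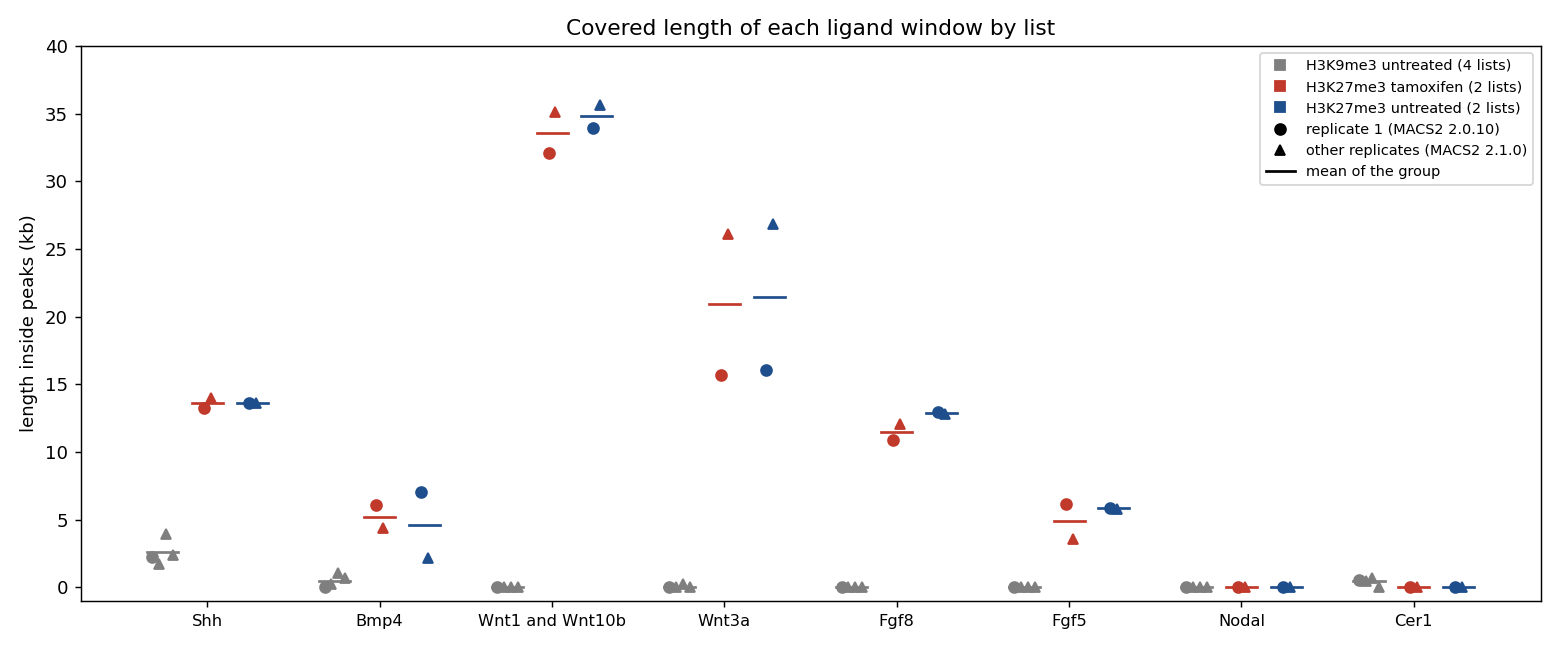
Length inside peaks (kb, y axis) in each ligand window for each list: H3K9me3 untreated, H3K27me3 with tamoxifen and H3K27me3 untreated from left to right, with circles for replicate 1, triangles for the others and bars for group means. Fgf8 is the window where both tamoxifen lists lie below both untreated lists, and at Wnt3a the triangles lie well above the circles in both treatments, at 26130 and 26846 bp against 15672 and 16072 bp.

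Bmp4, a TGF-beta family signal of mesoderm and of dorsal tissues, carried the mark in patches. In its window (chromosome 14, 46980000 to 47040000, 60 kb) peaks covered 6068 and 4359 bp in tamoxifen replicates 1 and 2, and 7036 and 2205 bp in untreated replicates 1 and 2. Untreated lists gave both the highest and the lowest value (difference 593 bp, exact permutation p = 1.0). The widest patch (47003894 to 47006893, 3000 bp) was found by the MACS2 2.0.10 lists alone, with 52.9% of it covered with tamoxifen and all of it untreated. A second patch, from 47007363 to 47010106 (2744 bp), was touched by all 4 lists and fell short of the 3 kb width of a domain. Its coverage was 64.5% and 97.0% in tamoxifen replicates 1 and 2, and 75% and 57.0% in untreated replicates 1 and 2. Another patch (47016867 to 47018978, 2112 bp) was also touched by all 4, at 51.7% and 58.8% with tamoxifen and at 64.0% and 9.80% untreated, yet no base of it was shared by all 4 lists. Peaks of 2 lists shared 0.158 to 0.474 of their joint bases over the window, with the untreated pair lowest. With a minimum width of 1 kb instead of 3 kb, or with peaks merged over gaps under 1 kb, the number of windows with a domain was 6, with Bmp4 among them, and with a minimum of 10 kb it was 4.

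Nodal and Cer1 had no called H3K27me3. Nodal is the TGF-beta family signal that embryonic stem cells and epiblast are known to express, and Cer1 is its secreted antagonist, made in visceral and definitive endoderm. Both windows (Nodal on chromosome 10, 60860000 to 60910000; Cer1 on chromosome 4, 82500000 to 82560000) were at 0 bp in all 4 H3K27me3 lists. Without read depth, a list at 0 says that no peak was called there and gives no limit on the amount of the mark. From the middle of the Nodal window the nearest region held by all 4 H3K27me3 lists was 54.1 kb away, and from that of Cer1 342.7 kb. The Nodal window had no peak in any of the 8 lists, like 34.3% of tiles of its own width, 50 kb.

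As a share of the window, averaged over the 4 H3K27me3 lists of both treatments, coverage was highest at Wnt1 and Wnt10b (48.9%), followed by Fgf8 (24.3%), Wnt3a (23.5%), Shh (19.5%), Bmp4 (8.20%) and Fgf5 (7.65%), with Nodal and Cer1 at 0. The Wnt1 and Wnt10b lists, at 45.9% to 50.96%, lay above every list of the other windows. The lists of Wnt3a (17.4% to 29.8%) spanned those of both Fgf8 (21.75% to 25.9%) and Shh (18.98% to 20.02%), so Wnt3a could not be placed between its neighbours. The Bmp4 lists (3.68% to 11.7%) likewise spanned those of Fgf5 (5.12% to 8.82%). These shares depend on where the window was set around the gene. Bmp4 still had more H3K27me3 than 96.2% of tiles of its own width, Fgf5 more than 96.1%, Shh 99.2%, Fgf8 99.4% and Wnt3a 99.6%.

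The comparison of tamoxifen with untreated cells was then read over all 8 domains together. Both tamoxifen lists lay below both untreated lists in coverage for 2 of the 8 domains, at Fgf8 and the second Wnt1 and Wnt10b domain, and above them for 0. Over the 3711 regions of 3 kb or wider held by all 4 lists, 24.5% were lower with tamoxifen in this sense and 4.55% higher, so the count at the ligands was near the background. Both domains called lower are wider than 10 kb. Of the 497 regions of 10 kb or wider, 33.8% were lower and 0.805% higher. Tamoxifen was lower within both MACS2 versions for these same 2 domains (background 41.5%) and higher within both for 0 (background 11.0%). In the other 6 domains the direction differed between the versions, and the background for this is what the 41.5% and 11.0% leave over, ties included. Lower values with tamoxifen numbered 6 of 8 domains with MACS2 2.0.10 and 4 of 8 with MACS2 2.1.0. No background share was worked out for a single version, so these counts describe the 8 domains alone. The median difference was -5.36 points over the 8 domains and -7.50 points over the 3711 regions. By covered length, 1 of the 6 windows with H3K27me3, that of Fgf8, had both tamoxifen lists below both untreated lists and 0 had them above. Of 60 kb tiles with peaks of all 4 lists, 18.1% and 6.63% met these calls.

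**Figure D4:**
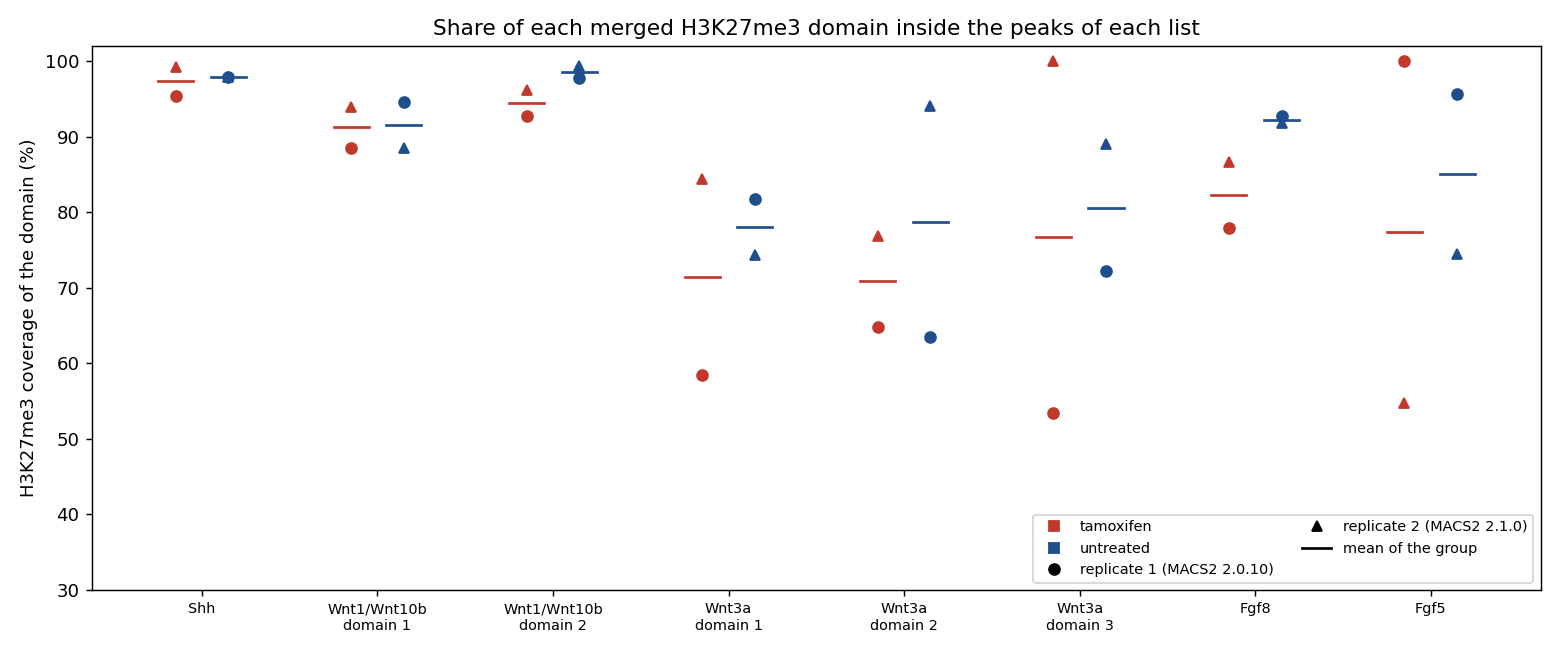
Percent of each merged H3K27me3 domain inside peaks (y axis, which starts at 30%) for tamoxifen (red, left) and untreated lists (blue, right), with circles for replicate 1, triangles for replicate 2 and bars for means. Fgf8 and the second Wnt1 and Wnt10b domain are the places where both red points lie below both blue ones, while at Fgf5 the red points span the blue ones, at 100% and 54.7%.

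Between lists, the domains at Shh and at Wnt1 and Wnt10b were placed more alike than those of Wnt3a and Fgf5. The bases shared by all 4 lists made up 79.97% and 91.6% of the Wnt1 and Wnt10b domains and 73.7% of the Fgf8 domain. They made up 45.4%, 61.8% and 51.6% of the Wnt3a domains and 54.7% of the Fgf5 domain, where the median over all such regions of 3 kb or wider was 43.8%. Over whole windows, peaks of 2 lists shared 0.852 to 0.910 of their joint bases at Wnt1 and Wnt10b and 0.810 to 0.935 at Fgf8, against 0.522 to 0.749 at Wnt3a. Wide regions have larger shared parts, and 5 of the 8 domains were 10 kb or wider. Outside the domains, 17 of the 35 merged regions came from 1 list, were 183 to 858 bp wide, and in 16 cases came from a MACS2 2.1.0 list. In the genome, 21063 of the 31723 merged regions came from a single list, and 79.6% of those came from MACS2 2.1.0 lists.

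The last question was how near H3K9me3 came to these genes in untreated cells. The Wnt1 and Wnt10b, Fgf8, Fgf5 and Nodal windows, 4 of 8, had no H3K9me3 peak in any of the 4 lists, against 41.0% of 60 kb tiles. Shh alone had one in every list, against 22.5% of 60 kb tiles. In the Shh window H3K9me3 covered 2256, 1727, 3949 and 2431 bp in replicates 1 to 4, against 13645 and 13638 bp of H3K27me3 in untreated replicates 1 and 2. The H3K9me3 site shared by all 4 lists ran from 28761318 to 28764399 (3082 bp) and ended 17.7 kb before the Shh domain. H3K9me3 replicate 3 also had a peak of 906 bp that lay 7.02 kb from the domain. In the Cer1 window a narrow H3K9me3 site covered 581, 501, 698 and 0 bp in replicates 1 to 4, while H3K27me3 was at 0 bp. It was in 3 of 4 lists, and without replicate 4, the library whose antibody entry is none, 2 windows had a peak in every remaining list. In the Bmp4 window H3K9me3 covered 0, 230, 1083 and 681 bp, and in the Wnt3a window it covered 236 bp in replicate 3 and 0 bp in the others.

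H3K9me3 minus untreated H3K27me3 was -4122 bp at Bmp4, -11050.75 bp at Shh and -34797.5 bp at Wnt1 and Wnt10b. The windows compared in this way hold H3K27me3 by choice, so the sign is a description. The two-sided exact permutation p was 0.133 in each of them, the smallest that 4 lists against 2 allow, and adds nothing to it. At Cer1, where no H3K27me3 was called, the H3K9me3 mean was 445 bp.

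Distances from the widest shared H3K27me3 region to the nearest H3K9me3 peak differed between the genes and, at Bmp4 and Wnt3a, widely between the lists. At Shh the gap was 17.7, 18.0, 7.02 and 15.0 kb in H3K9me3 replicates 1 to 4. The Fgf8 gap was 25.6, 25.7, 24.96 and 25.6 kb, all to a shared H3K9me3 region of 9838 bp (45772100 to 45781937). At Fgf5 it was 39.3, 39.1, 38.7 and 39.3 kb, to a shared region of 10016 bp (98632658 to 98642673). These 4 lists placed the H3K9me3 neighbour of Fgf8 and Fgf5 within less than 1 kb of each other. Wnt1 and Wnt10b were far from the mark, at 115.9, 157.5, 116.0 and 153.8 kb. Wnt3a was at 141.5, 141.8, 14.1 and 176.3 kb from its middle domain. The replicate 3 peak lay 1633 bp from the first Wnt3a domain, nearer than any H3K9me3 peak lay to the Shh domain. Without replicate 3 the shortest gap to any of the 3 Wnt3a domains was 126241 bp. Bmp4 was at 117.8, 24.6, 23.8 and 23.8 kb. Over the 3711 regions of 3 kb or wider the median gap was 54.5 kb, with quartiles of 23.2 and 106.7 kb, so Shh lay nearer than the lower quartile and both Wnt windows beyond the upper one. Of the 8 domains 1, that of Shh, had a peak of every H3K9me3 list within 20 kb, against 10.6% of those regions. Genes with and without a domain were not separated by this distance: the median over the 4 lists was 16.4 to 141.6 kb in the 5 windows with a domain, and 24.2 kb at Bmp4, 68.9 kb at Nodal and 13.2 kb at Cer1, the last 2 measured from the middle of the window.

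**Figure D5:**
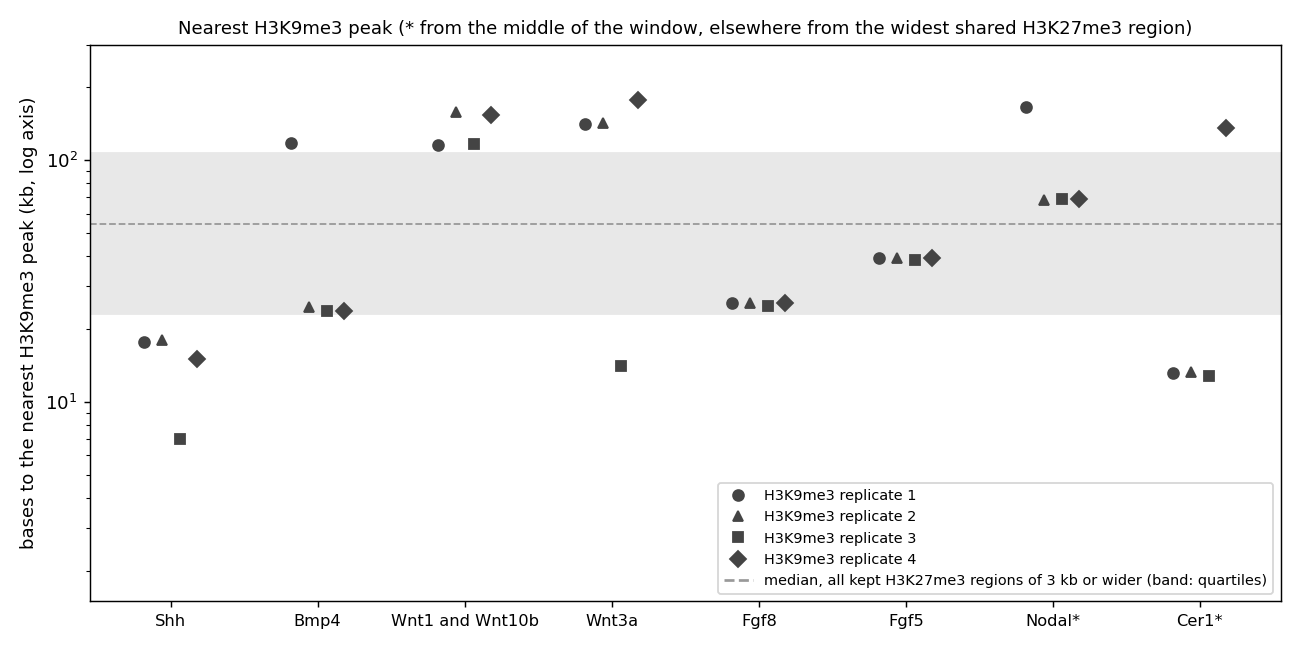
Bases between each gene's widest shared H3K27me3 region (for Nodal and Cer1 the middle of the window) and the nearest H3K9me3 peak, in kb on a log axis, with a symbol for each H3K9me3 replicate; the dashed line and band give the median and quartiles over 3711 H3K27me3 regions. The 4 symbols nearly coincide at Fgf8 and Fgf5, and a lone symbol stands apart at Bmp4, Wnt3a, Nodal and Cer1.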

How the data were processed

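Of the 13 samples in the labels, 8 came with a peak list. Each list, as the authors deposited it, gives peak positions in 3 columns with no score, height or count. The 5 inputs were not analysed here. The submitters' processing notes name Bowtie 0.12.7, MACS2 2.0.10 (replicate 1 of each group), MACS2 2.1.0 (other replicates) and mm9. Calling mode, threshold and control were not given in the sources used here. They and the unknown depth can set both the number and the width of peaks. Groups came from the titles; the first library of each group has no number there, so numbers pair no libraries beyond the MACS2 version. No pair of lists shared more than 1 identical peak, so each list was counted as its own sample.

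Peaks were read in Python 3.11.15 with NumPy 2.4.6 and pandas 2.3.3, and drawn with Matplotlib 3.10.9. Covered bases were counted in each window, and touching or overlapping H3K27me3 peaks were merged into regions. Differences of group means were tested by exact permutation, two-sided (the smaller one-sided p doubled) and unadjusted, since nothing could pass 0.05. Background tiles started at 3 Mb of each chromosome but Y. Positions of peaks count from 1. The interval code was tested on simulated data. The genes, windows and comparisons were chosen with earlier results of these data known, and all 9 genes are named. Alternatives were peaks of at least 500 bp, joining over gaps under 1 kb, wider windows, each MACS2 version alone, borders from 1 treatment, other domain widths, a block by version and leaving out each list.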

Additional observations from a re-analysis of the deposited data

Results flagged for a closer look

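In 5 of 12 sets of 4 H3K9me3 values, 1 list stood far from the other 3 by Dixon's criterion. Chance meets it in about 1 of 20 sets only where the values are normal and the sets independent. These sets come from the same 4 lists and some hold zeros, so the count cannot be set against that rate. H3K9me3 replicate 3 was the list with peaks in the Wnt3a window, at 236 bp against 0 bp in the others. Its gap at Fgf8, 24.96 kb, was the shortest of 4 nearly equal gaps, the others being 25.6 to 25.7 kb. H3K9me3 replicate 1 had its nearest peak 117.8 kb from the Bmp4 region, where the other lists had one at 23.8 to 24.6 kb. It also had its nearest peak 165.6 kb from the middle of the Nodal window, against 68.2 to 69.1 kb in the others. H3K9me3 replicate 4, the library with the antibody entry none, had its nearest peak 135.4 kb from the middle of the Cer1 window, against 12.8 to 13.3 kb in the others. Replicate 1 comes from the MACS2 2.0.10 set and held 18037 peaks, against 29410 to 42725 in the other lists. Its peaks covered 49.99 Mb, against 36.0, 54.7 and 42.1 Mb in replicates 2, 3 and 4. The part of peak number in these gaps was not tested.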

How the results depend on the processing

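The tests could not pass 0.05 in any setting, so the alternatives bear on direction and size alone, and depth is unknown. The lower values with tamoxifen at Fgf8 (covered length and domain) and in the second Wnt1 and Wnt10b domain kept their sign under every alternative run, but with borders from the tamoxifen lists the domain differences were -3.61 points at Fgf8, where the treatments then overlapped (exact permutation p = 0.667), and -1.55 points at Wnt1 and Wnt10b (p = 0.333). Elsewhere the tamoxifen difference turned its sign or, at Nodal and Cer1, left 0. The cause was not tested beyond the construction of each setting, and the differences were these. Covered length was -83 bp at Shh with peaks of at least 500 bp. With MACS2 2.0.10 alone it was -357 bp at Shh, -968 bp at Bmp4 and 271 bp at Fgf5. With windows widened by 20 kb on each side it was 221.5 bp at Wnt1 and Wnt10b, 58.5 bp at Wnt3a, 120.5 bp at Nodal and -374 bp at Cer1. In the second Bmp4 patch coverage was -4.84 points after merging over 1 kb, and in that of 2112 bp -5.0 points with borders from the untreated lists. In the first Wnt1 and Wnt10b domain it was 0.797 points with peaks of at least 500 bp and 2.40 with borders from the tamoxifen lists, which gave 5.07 points in the middle Wnt3a domain. Leaving out each list in turn gave ranges of covered length of -353.5 to 370.5 bp at Shh, -1822.5 to 3008.5 bp at Bmp4, -2693.5 to 288.5 bp at Wnt1 and Wnt10b, -5945 to 4829 bp at Wnt3a, -1994.5 to -791.5 bp at Fgf8 and -2245.5 to 340.5 bp at Fgf5. For coverage of regions the ranges in points were -2.54 to 1.35 at Shh, -73.55 to 26.45, -1.48 to 31.1 and -8.74 to 45.4 in the 3 widest Bmp4 patches from the widest down, -3.31 to 2.76 and -5.85 to -2.38 in the first and second Wnt1 and Wnt10b domains, -19.6 to 6.33, -23.1 to 7.44 and -27.1 to 19.4 in the 3 Wnt3a domains, -14.3 to -5.67 at Fgf8 and -30.4 to 14.95 at Fgf5. Windows with H3K9me3 in every list numbered 3 with 20 kb more on each side, and 1 to 2 when a list was left out (2 without replicate 1, where Bmp4 joined, or without replicate 4, where Cer1 did). The number of windows with a domain was 5 whichever list was left out. The replicate block by MACS2 version left every difference as it was, -1393 bp at Fgf8 and -558 bp at Wnt3a among them, with sign-flip permutation p of 0.5 at the lowest, the smallest that 2 pairs allow; it changed no call.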
